A study of Mus musculus with 9 samples.

Results

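The genes described here are the enzymes, regulators and transporters of cholesterol and fatty acid synthesis in mouse myeloid precursors (MPs) and in the osteoclasts (OCs) that grow from them. They were chosen as a list of 37 gene symbols, and a gene counted as measured where a transcript cluster of the array carried its symbol and no other. Of the 37 listed genes, 34 were measured, out of 14860 genes with such a cluster, and Acat2, Idi1 and Me1 had none. Each measured member had 1 transcript cluster. Total RNA was hybridised to 9 Mouse Exon 1.0 ST arrays, 3 per group. Bone marrow cells of strain C57Black6 were expanded for 3 days in medium with CSF-1, the growth factor that keeps MPs alive (100 ng/ml by the labels and less by the published methods), before seeding in a commercial OC culture medium. The 3 groups were MPs kept in CSF-1 alone, MPs given both CSF-1 and RANKL for 1.5 days, and MPs given both for 3 days. RANKL is the cytokine that turns MPs into OCs. The labels give no culture time for CSF-1 alone, so the effects of RANKL and of time in culture cannot be told apart. The labels give no altered allele, age or sex. The study's methods describe its measurements in general as biological replicates, while the labels do not tie the arrays to animals or cultures, so p-values measure the spread between these arrays.

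Cells build cholesterol from acetyl-CoA through the mevalonate pathway, whose intermediates also supply the isoprenoid tails that anchor small GTPases to membranes. Transcription of these enzymes is driven by the SREBP factors, which are held in the endoplasmic reticulum by INSIG and carried out of it by SCAP when sterols run low, with SREBP-2 acting mainly on sterol genes and SREBP-1 mainly on fatty acid genes. When sterols are plentiful their oxidised forms activate the nuclear receptor LXR, which switches on cholesterol export. In OCs the prenylation of GTPases is known as the target of the nitrogen-containing bisphosphonates used against bone loss, which inhibit FDPS.

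The members were read in 4 role groups, namely the sterol branch (16 of 18 listed enzymes measured), the SREBP regulators (4 of 4), LXR and sterol transport (4 of 4) and the fatty acid branch (10 of 11). The 250 bases before the start site were searched on both strands for the letters TCACNCCAC, a form of the sterol response element that SREBPs bind, and for CCAAT, the core of the box bound by their partner NF-Y. RefSeq promoter windows on GRCm38.p6 were at hand for 29 of the 37 listed genes, as 37 windows. The sterol response letters stood in 1 of those genes, Hmgcs1, against 1.05% of all 32851 windows of the same length. The CCAAT letters stood in 14 of 15 sterol branch genes and in 3 of 8 fatty acid genes. Counted by window, that was 14 of 18 for the sterol branch and 3 of 9 for the fatty acid branch, against 33.8% of all windows. Neither of the LXR and sterol transport genes with windows, Nr1h3 and Abca1, had a match. A match is only a match of letters, and no match says only that these letters are not in the window. The start site of 19 of the 37 windows was the gene's own RefSeq 5′ end, so a window need not hold the main promoter.
The windows below are from GRCm38.p6, each written from 5′ to 3′ on the gene's own strand, with both motifs in capitals, and belong to 2 sterol enzymes with matches and to 3 genes whose levels the results turn on. ATTGG in capitals is CCAAT on the other strand.
Hmgcs1 (chr13:119690101-119690350, plus strand): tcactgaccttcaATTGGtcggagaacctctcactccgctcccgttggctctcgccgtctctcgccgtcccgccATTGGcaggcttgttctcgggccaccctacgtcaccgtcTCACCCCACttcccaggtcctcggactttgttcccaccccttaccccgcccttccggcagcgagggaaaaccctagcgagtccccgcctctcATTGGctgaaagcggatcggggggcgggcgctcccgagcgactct
Mvd (chr8:122443423-122443672, minus strand): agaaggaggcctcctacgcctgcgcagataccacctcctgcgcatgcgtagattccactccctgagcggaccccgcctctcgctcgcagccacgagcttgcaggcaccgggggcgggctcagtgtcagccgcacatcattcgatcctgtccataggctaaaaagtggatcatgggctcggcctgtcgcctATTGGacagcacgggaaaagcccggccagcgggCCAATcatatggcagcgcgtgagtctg
Nr1h3 (chr2:91195117-91195366, minus strand, an upstream window of a pair that overlap): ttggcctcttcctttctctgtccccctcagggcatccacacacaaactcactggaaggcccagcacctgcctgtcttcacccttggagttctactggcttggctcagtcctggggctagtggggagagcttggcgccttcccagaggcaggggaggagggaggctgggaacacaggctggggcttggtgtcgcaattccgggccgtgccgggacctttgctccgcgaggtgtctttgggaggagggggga
Abca1 (chr4:53159896-53160145, minus strand): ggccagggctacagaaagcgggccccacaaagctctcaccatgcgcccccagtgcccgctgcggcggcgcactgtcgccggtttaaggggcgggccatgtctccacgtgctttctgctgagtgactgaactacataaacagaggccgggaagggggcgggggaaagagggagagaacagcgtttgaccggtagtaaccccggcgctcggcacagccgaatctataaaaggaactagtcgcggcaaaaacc
Lpin1 (chr12:16610967-16611216, minus strand): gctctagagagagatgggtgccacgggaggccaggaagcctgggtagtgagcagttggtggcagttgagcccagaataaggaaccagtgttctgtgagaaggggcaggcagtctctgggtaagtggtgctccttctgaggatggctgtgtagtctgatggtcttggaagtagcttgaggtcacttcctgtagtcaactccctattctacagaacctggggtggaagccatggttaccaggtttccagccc
In Hmgcs1 the sterol response letters lay 137 to 129 bases before the start site, between NF-Y letters at 176 to 172 and at 45 to 41. In Mvd the NF-Y letters lay at 60 to 56 and at 27 to 23 bases before the start site.

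Values are log2 intensities, and array medians lay between 5.02 and 5.22. The mean of 10 OC markers was 5.16 to 5.34 on the arrays of CSF-1 alone, 6.16 to 8.03 at 1.5 days and 8.00 to 8.95 at 3 days. The mean of 9 macrophage and monocyte markers was 10.5 to 10.7, then 9.93 to 10.3 and 10.1 to 10.3. For adipocytes, another lipid-making cell of the marrow, the mean of the 7 measured markers lay between 4.42 and 4.67 on every array. The list was mixed, with 2 of them under each array's lower quartile throughout. Group means of Adipoq, Lep, Retn and Cidec lay below the array medians. Those of Fabp4 and Plin1 lay near the medians, between 4.98 and 5.61. Pparg stood well above them, with group means between 8.42 and 8.66. Array 1 of each RANKL group had the lowest OC marker mean of its group, 6.16 at 1.5 days and 8.00 at 3 days. Arrays numbered 1 also stood apart in the lipid genes, so values within each array number are given beside the results. The labels do not say that arrays of the same number belong together, so these are not differences of matched pairs.

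Nr1h3, which encodes LXR alpha, was the only member that passed the test against CSF-1 alone at either time. Its log2 level (transcript cluster 6888752) was 7.00, 6.67 and 6.71 on the 3 arrays of CSF-1 alone, 7.74, 7.70 and 7.77 at 1.5 days, and 7.73, 8.13 and 8.25 at 3 days. Every RANKL array lay above every array of CSF-1 alone, and array 1 of the 3-day group sat with the 1.5-day arrays. The group means were 6.79 ± 0.18, 7.74 ± 0.04 and 8.04 ± 0.27 (SD, n = 3). At 3 days Nr1h3 rose by 1.24 on the log2 scale, a 2.37-fold difference (SE 0.14, 95% interval 0.91 to 1.57), with an adjusted p of 0.0226 in the limma fit over all genes. It had already risen by 0.94 at 1.5 days, or 1.92-fold (SE 0.14, 95% interval 0.61 to 1.27, limma adjusted p 0.0489). Within array numbers 1, 2 and 3 the difference was 0.73, 1.46 and 1.54 at 3 days and 0.74, 1.03 and 1.06 at 1.5 days. Between 1.5 and 3 days it differed by 0.30 (SE 0.14, 95% interval -0.03 to 0.63, limma adjusted p 0.823). Over all 14860 genes, 0.397% were called at 3 days (0.343% higher and 0.0538% lower) and 0.417% at 1.5 days (0.316% higher and 0.101% lower), and of the 34 members 1 was called higher and 0 lower at each time. Nr1h3 was the only member whose groups did not overlap at 1.5 days, against 14.7% of all genes (8.63% higher). The call rested on few arrays. Without CSF-1 alone array 2 or 3 the adjusted p at 3 days was 0.113 or 0.108, without 3-day array 2 or 3 it was 0.0678 or 0.0975, and at 1.5 days leaving out any of the 6 arrays compared gave 0.0618 to 0.235. In such bulk RNA fewer cells of a type and less RNA per cell cannot be told apart.

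The cholesterol exporters that LXR is known to switch on also had higher means in the RANKL groups, though neither passed the test against the spread of all 3 arrays. Abcg1, which passes cholesterol to HDL, measured 10.34, 9.48 and 9.49 in CSF-1 alone, 10.51, 10.21 and 10.23 at 1.5 days, and 11.12, 10.48 and 10.43 at 3 days. Its 3-day arrays all lay above the arrays of CSF-1 alone, while the 1.5-day arrays overlapped them. The difference was 0.91 at 3 days (SE 0.27, 95% interval 0.28 to 1.53, limma adjusted p 0.269) and 0.55 at 1.5 days (SE 0.27, limma adjusted p 0.659). Nr1h3 and Abcg1 were the 2 members with no overlap between CSF-1 alone and 3 days, against 11.5% of all genes (6.59% higher).

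Abca1, which passes cholesterol to lipid-poor apolipoprotein A-I, measured 8.55, 7.44 and 7.32 in CSF-1 alone, 8.71, 7.69 and 7.58 at 1.5 days, and 9.49, 8.14 and 8.19 at 3 days. Its groups overlapped, because array 1 was the highest of each group by more than 1 log2 unit over the mean of arrays 2 and 3. The difference at 3 days was 0.84 (SE 0.50, 95% interval -0.31 to 1.99, limma adjusted p 0.621), and within numbers 1, 2 and 3 it was 0.94, 0.70 and 0.87. It was 0.395 without array 1 of the 3-day group and 1.23 without array 1 of CSF-1 alone. For Abcg1 the values within numbers were 0.78, 1.00 and 0.94. With array number 1 against 2 and 3 as a term of the limma fit, both exporters passed at 3 days, Abca1 with an adjusted p of 0.00538 and Abcg1 with 0.0174, as did Nr1h3 with 0.0162. That fit called 1.45% of all genes at 3 days (1.14% higher). At 1.5 days it called Nr1h3 (adjusted p 0.0390) and no other member, against 1.38% of all genes (0.942% higher). The term was chosen with earlier results of these data known, and it takes the gap of array 1 out of the spread. Its calls therefore describe these arrays and are not an independent test. Stard4, a carrier of cholesterol between membranes and a known target of SREBP, had a lower mean at both times. It measured 8.96, 8.44 and 8.37 in CSF-1 alone, 8.69, 8.41 and 8.34 at 1.5 days, and 8.38, 8.44 and 8.44 at 3 days. Its difference of -0.17 at 3 days (SE 0.16, limma adjusted p 0.756) came from array number 1, where it was -0.58, while numbers 2 and 3 gave 0.00 and 0.07. The median over the 4 genes was 0.87 at 3 days and 0.385 at 1.5 days, against -0.01 and 0.01 over all genes. Leaving out array 1 of CSF-1 alone gave 1.21 and 0.72, and leaving out array 1 of the 3-day group gave 0.54 at 3 days. The OC marker mean was higher in the same groups, and its part in these differences was not tested.

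The genes that control SREBP processing had means that differed little between groups. Srebf2, which encodes SREBP-2, measured 10.70, 10.72 and 10.61 in CSF-1 alone, 10.64, 10.60 and 10.42 at 1.5 days, and 10.63, 10.58 and 10.58 at 3 days. Scap, the escort of SREBP out of the endoplasmic reticulum, measured 8.16, 8.25 and 8.16, then 8.17, 8.16 and 8.16, and then 8.16, 8.12 and 8.16. For Srebf2 and Scap the 95% intervals of the change at 3 days were -0.24 to 0.08 and -0.16 to 0.07. Srebf1, which encodes the SREBP-1 forms, measured 8.97, 8.69 and 8.73 in CSF-1 alone, 9.12, 8.91 and 8.89 at 1.5 days, and 8.80, 9.09 and 9.02 at 3 days. It was higher at 3 days within numbers 2 and 3, by 0.40 and 0.29, and differed by -0.17 within number 1, which left a mean difference of 0.17 (SE 0.11, limma adjusted p 0.648). Insig1, which retains SREBP in the endoplasmic reticulum and is itself an SREBP target, measured 10.66, 9.70 and 9.80 in CSF-1 alone, 10.30, 9.65 and 9.63 at 1.5 days, and 10.28, 10.14 and 10.13 at 3 days. Its 3-day difference of 0.13 (SE 0.27, 95% interval -0.50 to 0.76, limma adjusted p 0.907) had the same shape as that of Srebf1, with -0.38 within number 1 and 0.44 and 0.33 within numbers 2 and 3.

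In the sterol branch none of the 16 measured enzymes passed the test in any of the 3 comparisons. The same fit called 1 of the 10 OC markers at 3 days and 0 at 1.5 days. Their median differences from CSF-1 alone were 3.61 and 2.22, so a gene not called was not shown to be unchanged. At 3 days 7 enzymes lay above CSF-1 alone and 9 below, from -0.16 for Hsd17b7 to 0.34 for Mvd, with a median of -0.02. At 1.5 days 2 lay above and 14 below, with a median of -0.105. For 15 of the 16 enzymes the 95% interval of the change at 3 days lay within 2-fold in either direction, and the exception was Fdps, at -0.47 to 1.05. The same 15 lay within 2-fold at 1.5 days, where the interval for Fdps was -1.12 to 0.40. At an unadjusted p under 0.05 there were 2 of the 34 members at 3 days (Nr1h3 and Abcg1), neither in this branch. Over all genes there were 1564 of 14860, a larger share.

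Mvd, which turns mevalonate diphosphate into the first isoprene unit, had the largest difference of the branch at 3 days. It measured 8.57, 7.81 and 7.88 in CSF-1 alone, 8.62, 8.24 and 8.13 at 1.5 days, and 8.60, 8.35 and 8.33 at 3 days. Arrays 2 and 3 were higher with RANKL at both times while array 1 was level across the groups. The difference at 3 days was 0.34 (SE 0.22, 95% interval -0.16 to 0.84, limma adjusted p 0.646), and within numbers it was 0.03, 0.54 and 0.45. Without array 1 or array 2 of CSF-1 alone it was 0.58 or 0.20. The Mvd window above holds NF-Y letters on both strands. Windows of Mvk, Ggps1 and Dhcr7 do as well, and those enzymes differed by 0.02, 0.05 and 0.14 at 3 days. Hmgcs1, which commits acetyl-CoA to the pathway and whose window holds the sterol response letters, measured 10.02, 9.03 and 9.17 in CSF-1 alone, 9.48, 8.98 and 9.13 at 1.5 days, and 9.23, 9.32 and 9.41 at 3 days. Its 3-day difference was -0.79 within number 1 and 0.29 and 0.24 within numbers 2 and 3, with a mean of -0.09 (SE 0.25, limma adjusted p 0.940).

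Ggps1, which makes the geranylgeranyl tail used in protein prenylation, measured 7.15, 7.44 and 7.22 in CSF-1 alone, 6.82, 6.88 and 7.18 at 1.5 days, and 7.40, 7.19 and 7.38 at 3 days. It was lowest at 1.5 days, by -0.31 against CSF-1 alone (SE 0.12, limma adjusted p 0.490), and stood 0.36 higher at 3 days than at 1.5 days (SE 0.12, limma adjusted p 0.823). Its unadjusted p values for those differences were 0.0326 and 0.0166. Fdps, the target of bisphosphonates, measured 2.77, 2.82 and 2.35 in CSF-1 alone, 2.09, 1.79 and 2.98 at 1.5 days, and 2.59, 2.83 and 3.39 at 3 days. These values lay below the lower quartile of the array on 8 of 9 arrays. Its differences, -0.36 at 1.5 days and 0.29 at 3 days against CSF-1 alone, are therefore those of a signal near background. Among the later enzymes, Cyp51, which removes the 14-alpha methyl group of lanosterol, measured 9.31, 8.61 and 8.52 in CSF-1 alone, 8.99, 8.30 and 8.35 at 1.5 days, and 8.80, 8.54 and 8.82 at 3 days. Its differences were -0.27 at 1.5 days (SE 0.25, limma adjusted p 0.909) and -0.09 at 3 days (SE 0.25, limma adjusted p 0.933). Hsd17b7, the ketone reductase of the later removal of the C-4 methyl groups, measured 8.64, 8.28 and 8.21, then 8.23, 7.93 and 8.22, and then 8.00, 8.29 and 8.35. Its difference at 3 days was -0.64 within number 1 and 0.01 and 0.14 within numbers 2 and 3. The other 10 enzymes, from Mvk to Dhcr7, differed by between -0.08 and 0.14 at 3 days.

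**Figure D1:**
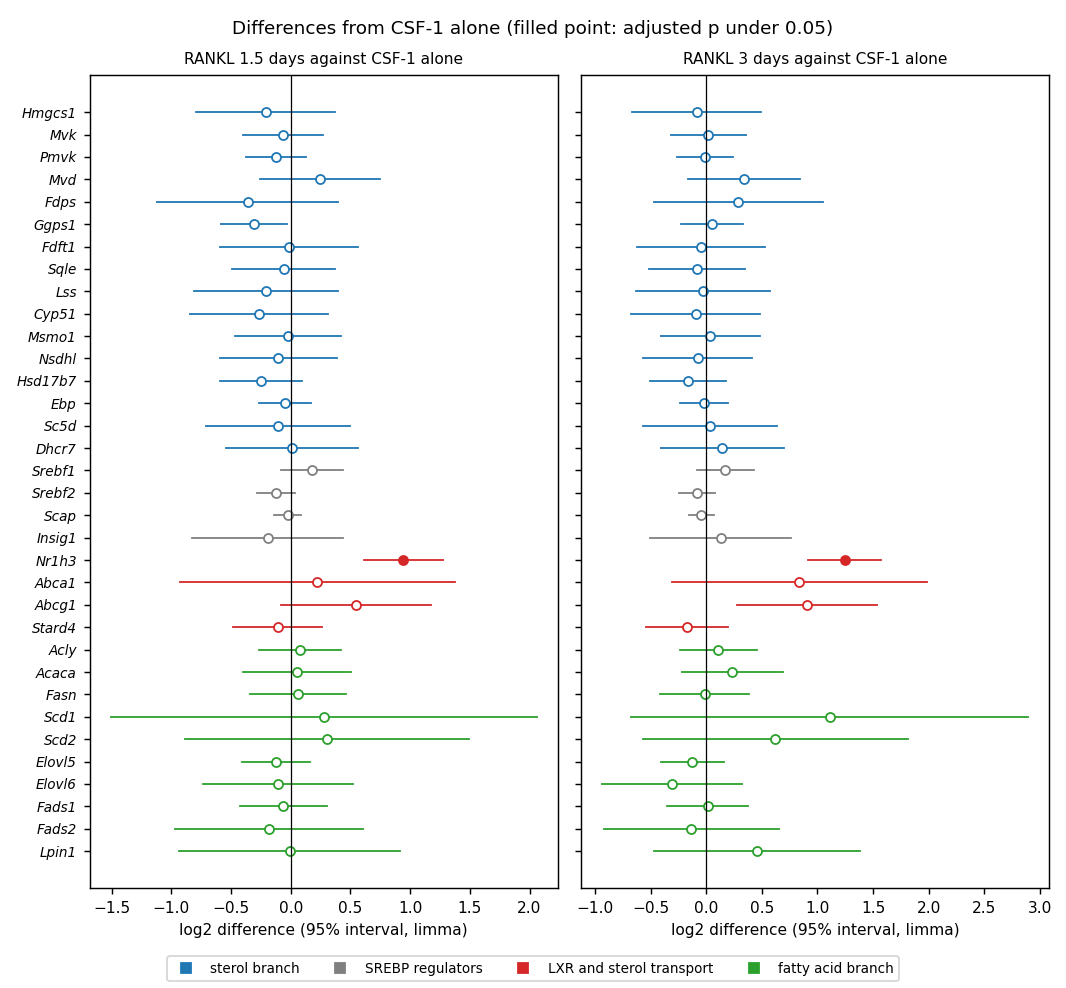
Difference in log2 intensity from CSF-1 alone (x axis) at 1.5 and 3 days of RANKL for each of the 34 members (y axis), with 95% intervals from the limma fit and filled points for members called. Intervals lay clear of 0 in both comparisons for Nr1h3, and the widest interval at 3 days, -0.67 to 2.89, belonged to Scd1.

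In the fatty acid branch 0 of 10 measured enzymes passed the test in any comparison, and at 3 days 6 lay above CSF-1 alone and 4 below, with a median of 0.06. The widest differences were those of the stearoyl-CoA desaturases, which put the double bond into saturated fatty acids. Scd1 measured 9.32, 6.77 and 6.67 in CSF-1 alone, 8.97, 7.28 and 7.34 at 1.5 days, and 9.32, 8.30 and 8.47 at 3 days. Array 1 lay between 8.97 and 9.32 in all 3 groups, while arrays 2 and 3 were higher at 1.5 days than in CSF-1 alone and higher again at 3 days. The mean difference at 3 days was 1.11 (SE 0.77, 95% interval -0.67 to 2.89, limma adjusted p 0.679), made of 0.00 within number 1, 1.53 within number 2 and 1.80 within number 3. Without array 1 of CSF-1 alone it was 1.98, and without array 2 or 3 of CSF-1 alone it was 0.70 or 0.65. Scd2, the isoform that predominates in many tissues other than adult liver, measured 11.55, 9.71 and 9.68 in CSF-1 alone, 11.33, 10.16 and 10.36 at 1.5 days, and 10.96, 10.87 and 10.97 at 3 days. Its arrays spread from 9.68 to 11.55 in CSF-1 alone and from 10.87 to 10.97 at 3 days. The mean difference was 0.62 (SE 0.51, 95% interval -0.57 to 1.81, limma adjusted p 0.726), with -0.59 within number 1 and 1.16 and 1.29 within numbers 2 and 3. Without array 1 of CSF-1 alone it was 1.24, and without array 2 or 3 of CSF-1 alone it was 0.32 or 0.30.

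Lpin1, a phosphatidate phosphatase on the way to triglycerides and phospholipids, differed from the desaturases at 3 days in that array number 1 was higher than in CSF-1 alone, as numbers 2 and 3 were. It measured 7.68, 6.67 and 6.68 in CSF-1 alone, 7.51, 6.76 and 6.73 at 1.5 days, and 8.19, 7.10 and 7.11 at 3 days. The 3-day values were higher than those of CSF-1 alone by 0.51, 0.43 and 0.43 within the numbers, while at 1.5 days the differences were -0.17, 0.09 and 0.05. The mean difference of 0.46 did not pass against the spread of the 3 arrays (SE 0.40, 95% interval -0.47 to 1.38, limma adjusted p 0.738). With array number 1 against 2 and 3 as a term, chosen with earlier results known, it did (limma adjusted p 0.0381). Elovl6, which extends palmitate to stearate, measured 7.55, 6.90 and 6.61 in CSF-1 alone, 7.02, 6.88 and 6.84 at 1.5 days, and 6.23, 6.88 and 7.03 at 3 days. Its difference of -0.31 at 3 days (SE 0.27, limma adjusted p 0.741) came from number 1, at -1.32, while numbers 2 and 3 gave -0.02 and 0.42. Acaca, the acetyl-CoA carboxylase that makes malonyl-CoA, measured 8.10, 7.57 and 7.54, then 7.86, 7.82 and 7.68, and then 8.29, 7.64 and 7.98. Its difference at 3 days was 0.23 (SE 0.20, limma adjusted p 0.727). Acly and Fasn, which supply acetyl-CoA and build palmitate, and Elovl5, Fads1 and Fads2, which lengthen and desaturate polyunsaturated fatty acids, differed by between -0.13 and 0.11 at 3 days.

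**Figure D2:**
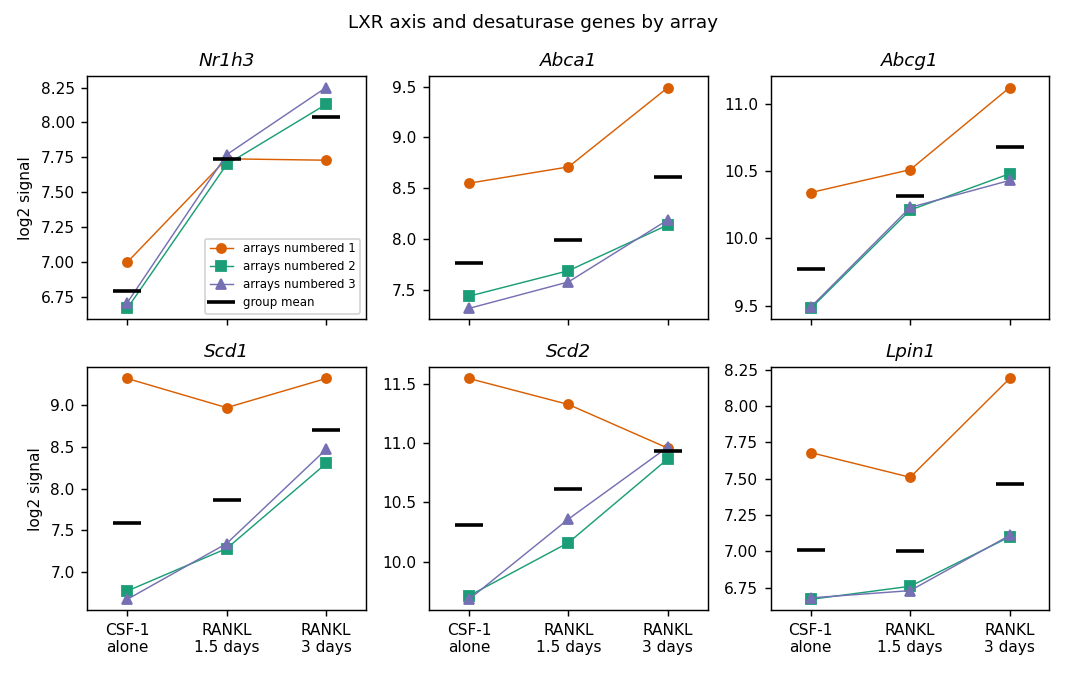
Log2 signal (y axis) of Nr1h3, Abca1, Abcg1, Scd1, Scd2 and Lpin1 on the 9 arrays by group (x axis), with lines joining arrays of the same number and black bars for group means. Nr1h3 lay between 6.67 and 7.00 with CSF-1 alone and between 7.70 and 8.25 with RANKL, while array 1 was the highest of its group in every group for Abca1, Abcg1, Scd1 and Lpin1.

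Set side by side, the mean log2 level of the 16 sterol enzymes was 8.58, 8.07 and 8.02 in CSF-1 alone, 8.33, 7.92 and 8.07 at 1.5 days, and 8.28, 8.18 and 8.27 at 3 days. That of the 10 fatty acid enzymes was 9.44, 8.52 and 8.47, then 9.25, 8.63 and 8.62, and then 9.15, 8.89 and 8.98. In both branches array 1 of CSF-1 alone was the highest of the 9 arrays, and the 3 arrays of the 3-day group lay closest together. The median change at 3 days within numbers 1, 2 and 3 was -0.32, 0.10 and 0.22 for the sterol branch and -0.28, 0.135 and 0.365 for the fatty acid branch, so the direction differed between number 1 and the others in both. For LXR and sterol transport it was 0.755, 0.85 and 0.905, in one direction throughout, and over all genes it was -0.02, 0.00 and 0.00. The numbers were not taken as pairs of arrays. Counted gene by gene, 7 of the 34 members (20.6%) were higher at 3 days than in CSF-1 alone within all 3 numbers, against 13.2% of all genes. Those 7 held 3 of the 4 LXR and sterol transport genes, namely Nr1h3, Abca1 and Abcg1, with Mvd, Dhcr7, Acaca and Lpin1. Lower within all 3 numbers at 3 days was 1 member (2.94%, against 12.8% of all genes). The lean at 1.5 days was the other way, with 5 members higher (14.7%, against 16.9%) and 9 lower (26.5%, against 13.6%). On arrays 2 and 3 alone, with 2 per group, limma called 7 members higher at 3 days, against 2.25% of all genes (1.45% higher). They were Mvd (adjusted p 0.0415), Nr1h3 (0.00417), Abca1 (0.0199), Abcg1 (0.00607), Scd1 (0.00607), Scd2 (0.0117) and Lpin1 (0.0284). At 1.5 days the same arrays gave 3 calls, Nr1h3 (0.00877), Abcg1 (0.00931) and Scd1 (0.0421), against 3.19% of all genes (1.34% higher). Leaving out number 1 was an alternative chosen with earlier results of these data known, so its calls are not an independent test. With all 9 arrays Nr1h3 was the only member called at either time.

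**Figure D3:**
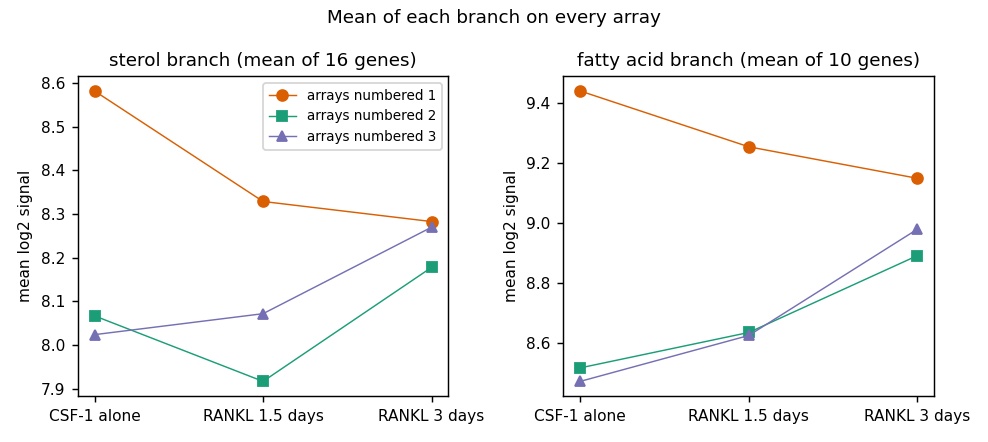
Mean log2 intensity (y axis) of the 16 sterol branch and 10 fatty acid branch enzymes on each array, by group (x axis), with lines joining arrays of the same number, which the labels do not tie to a shared culture. The sterol mean on array number 1 went from 8.58 in CSF-1 alone to 8.28 at 3 days, while on numbers 2 and 3 it went from 8.07 and 8.02 to 8.18 and 8.27.

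Between 1.5 and 3 days of RANKL no member was called, and neither was any of the 14860 genes (0%). An unadjusted p under 0.05 was reached by 1 of the 34 members, Ggps1, and by 771 of the 14860 genes, a larger share. Ggps1 was also the only member whose groups did not overlap (6.79% of all genes, 3.42% higher), and the methods' t-test adjusted over all genes called 0. Of the members 26 lay above and 7 below 0, with a median of 0.09 against -0.01 over all genes. The sterol branch median was 0.105, with 14 enzymes above 0 and 2 below, and within numbers 1, 2 and 3 it was -0.125, 0.235 and 0.22. Abca1 differed by 0.61 (SE 0.50), Lpin1 by 0.47 (SE 0.40), Abcg1 by 0.36 (SE 0.27) and Insig1 by 0.32 (SE 0.27), none of which passed (limma adjusted p 0.829, 0.836, 0.827 and 0.835).

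The arrays numbered 1 gave higher signals for most members than arrays 2 and 3 of the same group. Array 1 was the highest of its group for 30 of 34 members in CSF-1 alone (88.2%, against 25.1% of all genes), for 31 at 1.5 days (91.2%, against 31.5%) and for 18 at 3 days (52.9%, against 23.4%). With the group means taken out, number 1 stood above the mean of 2 and 3 by a median of 0.36 over the members, 30 of 34 above 0, against -0.04 over all genes. The medians were 0.38 for the sterol branch and 0.36 for the fatty acid branch. Limma called 9 members higher on number 1 and 0 lower, against 1.94% of all genes (0.949% higher). Those with the lowest p were Abca1, at 1.19 (SE 0.06, limma adjusted p 0.000862), and Lpin1, at 0.95 (SE 0.06, limma adjusted p 0.00256). Scd1 was the largest of the 34, at 1.73 (SE 0.26, limma adjusted p 0.0352). The other 6 were Fdft1 and Dhcr7, which make squalene and carry out the last reduction to cholesterol, with Mvd, Abcg1, Fads1 and Fads2, at 0.35 to 0.75. Nr1h3 was not among them, at -0.05 (SE 0.13, limma adjusted p 0.885).

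**Figure D4:**
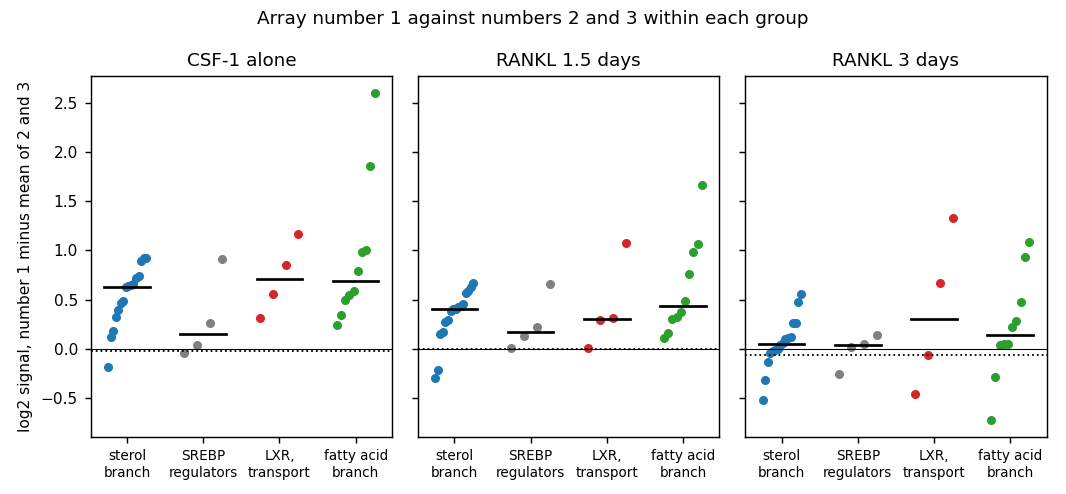
Log2 signal of array number 1 minus the mean of numbers 2 and 3 (y axis) for each member (points) by role group (x axis), in a panel per group of arrays, with solid bars for role group medians and a dotted line for the median of all genes. The highest point of each of the first 2 panels is Scd1, at 2.60 with CSF-1 alone and 1.66 after 1.5 days, and in the 3-day panel it is Abca1, at 1.325.

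The medians of this gap differed between groups. The sterol median was 0.63 for CSF-1 alone, then 0.41 after 1.5 days and 0.05 after 3 days, and the fatty acid median was 0.69, 0.43 and 0.14. For Scd2 it went from 1.855 to 1.07 and 0.04, for Hmgcs1 from 0.92 to 0.425 and -0.135, while for Abca1 it was 1.17, 1.075 and 1.325. The change in the gap from CSF-1 alone to 3 days was below 0 for 28 of 34 members (82.4%, against 56.9% of all genes), with a median of -0.52 against -0.04. Limma called 0 of 34 members and 0% of all genes for it. An unadjusted p under 0.05 was reached by 20 members (58.8%) and by 2420 genes (16.3%). That comparison was added after the values had been seen and has 3 residual degrees of freedom. Other gene groups moved with array number as well. The median of the OC markers was -1.87 at 1.5 days and -1.01 at 3 days for number 1 against 2 and 3, that of 5 proliferation genes was -0.85 at 3 days, and that of the adipocyte markers was 0.06, 0.03 and 0.03 in the 3 groups. The part of OC or proliferation content in the members' gap was not tested, and array number cannot be told apart from whatever else set those arrays apart.

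**Figure D5:**
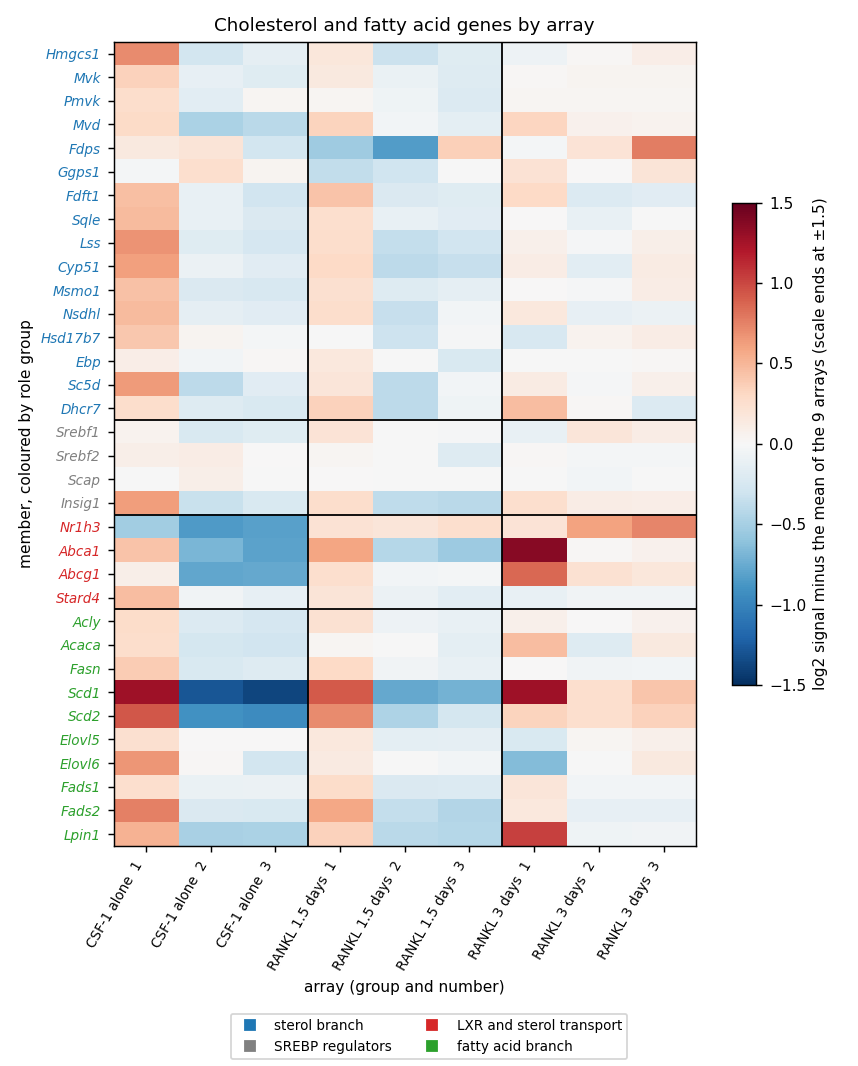
Log2 intensity of each member (rows, by role group) on the 9 arrays (columns), as the difference from the member's mean over the 9 arrays, with the colour scale ending at -1.5 and 1.5. The columns of array number 1 in CSF-1 alone and at 1.5 days were above the mean for most rows, and Nr1h3 was below its mean in every CSF-1 alone column.

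Other genes of the same pathways, taken from lists of neighbouring functions, gave no call in any of the 3 comparisons. In prenylation and dolichol synthesis 11 of 14 listed genes were measured, with a median of 0.04 at 3 days and a range of -0.08 to 0.19. The highest was Nus1, a subunit of the dolichol-making prenyltransferase (0.19, SE 0.06, limma adjusted p 0.330). Among other sterol genes 9 of 15 were measured, with a median of -0.07 and a highest value of 0.24 for Npc2, which hands cholesterol out of lysosomes (SE 0.07, limma adjusted p 0.240). Among other fatty acid and lipid genes 12 of 15 were measured, with a median of -0.03. The ends of their range were Hsd17b12, which serves fatty acid elongation, at -0.28 (SE 0.14, limma adjusted p 0.544), and Lpcat3, a phospholipid-remodelling enzyme, at 0.28 (SE 0.19, limma adjusted p 0.679). On array number 1 against 2 and 3 their medians were -0.07 for prenylation, -0.02 for other sterol genes and 0.13 for other fatty acid and lipid genes, where 2 of 12 were called higher, beside 0.36 for the 34 members.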

How the data were processed

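Total RNA of 9 mouse samples was read on Affymetrix Mouse Exon 1.0 ST arrays. The deposited values are log2 intensities per transcript cluster, given to 2 decimals, which the authors made with Affymetrix Expression Console and RMA according to the submitters' processing notes, with versions not given in the sources used here. No counts underlie them, so the number of arrays limits the precision. Of 23332 clusters, 14996 had 1 gene symbol in the platform annotation, 1019 had several and 7317 were unlisted. Symbols were updated through RefSeq for 14941, and 14860 genes remained after keeping the cluster with the highest mean per symbol. The arrays' genome build was not given, so no coordinates come from them.

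All 14860 genes were fitted with limma 3.58.1 (R 4.3.3) on the 3 group means over all 9 arrays, with no filter and no block, by lmFit and eBayes, giving 6 residual degrees of freedom. A gene was called where the Benjamini-Hochberg adjusted p over all genes was under 0.05. With 3 arrays against 3, the smallest two-sided p of an exact test is 0.1. Array values are given for called members and, in each role group, for the 5 (4 in groups of 4) with the largest absolute change, and Hmgcs1 was added for its promoter after its values were seen. The members, lists and alternatives were chosen with earlier results of these data known. The comparison of the number 1 gap between groups was added later. Alternatives were a replicate block, array number 1 against 2 and 3 as a term, arrays 2 and 3 alone, other normalization, filters and variance models. Others were array weights, cluster rules, the 6 arrays of a comparison alone, the methods' t-test, and each array left out. No 2 arrays were identical. The fit was tested on simulated data. Columns of no other series were used.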

Additional observations from a re-analysis of the deposited data

How the results depend on the processing

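The number of members called at 3 days against CSF-1 alone was 1. It became 4 with array number 1 against 2 and 3 as a term and 7 on arrays 2 and 3 alone. It was 0 with all transcript clusters, on the 6 arrays of the comparison alone and by the methods' t-test. Each array left out gave 0 to 1. At 1.5 days it was 1, and became 3 on arrays 2 and 3 alone and 0 with all clusters, on 6 arrays alone and by the t-test, and each array left out gave 0 to 0. The LXR and sterol transport median ranged from 0.54 to 1.21 at 3 days and from 0.16 to 0.72 at 1.5 days with an array left out. The sterol branch median ranged from -0.11 to 0.18 at 3 days and from -0.23 to 0.10 at 1.5 days over 15 settings, so its sign was not settled. Stard4 at 3 days turned to 0.035 on arrays 2 and 3 alone and to 0.015 without CSF-1 alone array 1 (-0.28 to 0.02 over the arrays left out), and Elovl6 turned to 0.20 on arrays 2 and 3 alone. For Nr1h3 the change was 1.14 to 1.50 at 3 days over 18 settings (adjusted p 0.00417 to 0.341, called in 11) and 0.88 to 1.05 at 1.5 days (0.00292 to 0.235, called in 8). Of the values of named members under an alternative, 312 kept direction and side of the threshold, 9 newly passed, 17 no longer passed and 3 changed sign.

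With the replicate block 3 members were called at 3 days (Nr1h3, Abca1 and Abcg1) and 0 at 1.5 days. The adjusted p with the block was 0.0845 for Nr1h3 at 1.5 days and 0.0901 for Lpin1 at 3 days. Same-numbered arrays deviated together with correlations of 0.046 to 0.366, over 0.1 in 7 of 9 pairs. Only 3 of 9 arrays correlated best with their own number in both other groups. They were the arrays numbered 1, at 0.27 to 0.366 with each other, so number 1 formed a set across the groups. Numbers 2 and 3 did not separate in this way, and the numbers were not taken as pairing the samples.

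Over all genes, 59 were called at 3 days and 62 at 1.5 days. These became 97 and 71 with the block, 215 and 205 with array number 1 against 2 and 3 as a term, and 334 and 474 on arrays 2 and 3 alone. They were 97 and 61 after centring, 95 and 95 without the dimmest genes (which drops Fdps), and 65 and 607 with array weights. With all clusters they were 19 and 15, on 6 arrays alone 31 and 26, and by the t-test 0 and 6. The causes were not tested. Signals near background, as for Fdps, limit what can be read from them.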
